A study of Mus musculus with 177 samples.

Results

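Phosphofructokinase and the bifunctional enzymes that set its activity were followed after hypoxia in 3 tissues of mouse pups. The set holds 7 genes, the 3 phosphofructokinase subunits Pfkl, Pfkm and Pfkp and the 4 bifunctional enzymes Pfkfb1, Pfkfb2, Pfkfb3 and Pfkfb4, out of 19937 genes tested. Members were taken by symbol from probe sets annotated to exactly 1 gene. Pfkl, Pfkm, Pfkp, Pfkfb2, Pfkfb3 and Pfkfb4 had 1 such probe set each, so 6 of 7 members were measured, and Pfkfb1, the liver and muscle isoform, is not analysed here. The set was chosen by the difference between hypoxia and normoxia arrays seen earlier in this study. The changes of Pfkl in lung and of Pfkp in eye are therefore given as descriptions, without a p-value. Where the text says that either passed the threshold of the fit across all genes, that places it beside the share of all genes that did and is no independent support.

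Phosphofructokinase adds a phosphate to fructose 6-phosphate and is the committed, most tightly regulated step of glycolysis. The enzyme is a tetramer of liver-type (Pfkl), muscle-type (Pfkm) and platelet-type (Pfkp) subunits, mixed in proportions that differ between tissues. The bifunctional enzymes make and degrade fructose 2,6-bisphosphate, which activates phosphofructokinase. Several glycolysis genes, Pfkl, Pfkfb3 and Pfkfb4 among them, are known targets of the hypoxia-inducible factors (HIF), which bind DNA elements with the core ACGTG or GCGTG.

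C57BL/6 pups at postnatal day 7 breathed gas with an inspired oxygen fraction of 0.08 (hypoxia) or 0.21 (normoxia) for 120 min, then 21, 40, 60 or 100% oxygen for 30 min, and then air for 150 min until the tissues were taken. H21, H40, H60 and H100 denote the hypoxia groups by the oxygen they received in the 30 min phase, and N21 and N100 denote their normoxia counterparts. In the same order lung gave 9, 9, 12, 11, 9 and 10 arrays, brain 9, 9, 11, 11, 9 and 9, and eye 9, 9, 9, 11, 9 and 9, which made 41 hypoxia and 19 normoxia arrays of lung, 40 and 18 of brain and 38 and 18 of eye. All groups ended with the same time in air, so no array shows the tissue during hypoxia itself.

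Of 177 arrays, 3 labelled H40 had the profile of another tissue and were left out: replicate 10 of lung correlated best with brain, replicate 7 of brain with eye and replicate 9 of eye with lung. The other arrays carried the markers of their labels. The surfactant genes of type 2 alveolar cells had a median of 11.9 on the log2 scale in lung, against 5.75 in brain and 5.65 in eye. Neuron genes had a median of 11.4 in brain and lens crystallins one of 13.3 in eye. The arrays also differed by blocks of consecutive sample records, which the labels do not call a batch: between the later records and the first block 11256 genes passed the test in lung, 8933 in brain and 7712 in eye. The groups fell unevenly over the 3 blocks. In brain and eye N100 had 8, 1 and 0 arrays in them, N21 5, 1 and 3 and H100 6, 1 and 4. In lung N100 had 8, 1 and 1. The main fits held no block term, so group and block are partly mixed in them. Arrays with a low median correlation to the rest of their tissue numbered 2 in lung, 5 in brain and 5 in eye. Among them were brain H21 replicate 8, H40 replicate 10 and N21 replicate 7 and eye H21 replicate 9, H40 replicate 8 and N21 replicate 7, which carried the lowest Pfkl, Pfkm or Pfkfb4 values of their groups.

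Pfkl lies at chr10:77986947-78009807, Pfkm at chr15:98092589-98132447, Pfkp at chr13:6579874-6649060, Pfkfb2 at chr1:130689043-130729253, Pfkfb3 at chr2:11471430-11554071 and Pfkfb4 at chr9:108988272-109032236 (RefSeq, GRCm38.p6). The 250 bases before a RefSeq start are given here for Pfkl and Pfkp, the genes with the largest changes, and for Pfkfb3 and Pfkfb4, the bifunctional enzymes known as HIF targets. Each is printed 5′ to 3′ on the strand of its gene, and capitals mark ACGTG or GCGTG on either strand (CACGT or CACGC on the printed strand).
Pfkl, chr10:78009808-78010057, minus strand: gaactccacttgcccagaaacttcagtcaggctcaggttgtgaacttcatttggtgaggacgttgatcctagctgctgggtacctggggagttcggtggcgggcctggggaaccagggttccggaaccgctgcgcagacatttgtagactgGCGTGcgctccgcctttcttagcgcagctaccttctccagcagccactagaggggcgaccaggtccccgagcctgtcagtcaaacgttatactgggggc
Pfkp, chr13:6648772-6649021, minus strand: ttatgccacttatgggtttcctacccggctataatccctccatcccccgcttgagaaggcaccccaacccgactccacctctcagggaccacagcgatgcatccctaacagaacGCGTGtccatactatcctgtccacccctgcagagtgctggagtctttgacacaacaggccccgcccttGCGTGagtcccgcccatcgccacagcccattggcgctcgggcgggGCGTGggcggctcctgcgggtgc
Pfkfb3, chr2:11553930-11554179, minus strand: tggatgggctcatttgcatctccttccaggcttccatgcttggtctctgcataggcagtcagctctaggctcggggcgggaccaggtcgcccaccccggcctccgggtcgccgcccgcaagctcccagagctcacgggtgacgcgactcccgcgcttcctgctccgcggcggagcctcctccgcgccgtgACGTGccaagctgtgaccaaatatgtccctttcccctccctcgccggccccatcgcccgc
Pfkfb4, chr9:108991652-108991901, plus strand: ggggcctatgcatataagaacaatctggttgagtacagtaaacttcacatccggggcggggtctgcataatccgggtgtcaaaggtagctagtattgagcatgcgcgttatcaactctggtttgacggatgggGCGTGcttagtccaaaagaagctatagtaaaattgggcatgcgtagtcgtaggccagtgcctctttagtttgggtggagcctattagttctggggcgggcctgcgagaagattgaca
The other members held such cores too: across the 16 RefSeq windows of the 7 genes 6 held ACGTG, 9 held GCGTG and 12 held either, several windows of a gene overlapping. Counted over both strands, the first window of Pfkm held ACGTG 3 times, where the matches at -136 and -135 are 1 CACGTG. A window of Pfkfb2 held each core 2 times, and its ACGTG matches at -22 and -21 are 1 CACGTG. Pfkl held GCGTG once, at position -99 counted from the start. Pfkp held it 3 times, at -136, -68 and -23, and once more at 30 in the 50 bases after the start. Pfkfb3 held ACGTG once at -60, and a second RefSeq start of Pfkfb3 held both cores. Pfkfb4 held GCGTG at -117. Among all 32851 windows from 250 bases before to 50 after a start, 19.6% held ACGTG, 32.4% held GCGTG and 43.8% held either, where CACGTG counts as a match on both strands. Matches are a description of the letters and do not show that a factor binds.

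Pfkl, the liver-type subunit, was higher after hypoxia in lung. The mean of the 4 hypoxia groups exceeded that of the 2 normoxia groups by 0.30 ± 0.059 on the log2 scale (SE of the fit), a 1.23-fold difference. It was among the 331 genes, 1.66% of those tested, that passed at an adjusted p under 0.05 (limma, Benjamini-Hochberg over all genes), and the 192nd largest change of all. Of 41 hypoxia arrays, 35 lay above the normoxia mean, and 16 lay above the highest normoxia array.

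Per group, the lowest, median and highest lung Pfkl values were 8.19, 8.63 and 8.78 in H21 and 8.48, 8.70 and 9.04 in H40. They were 8.03, 8.47 and 8.68 in H60 and 8.05, 8.59 and 8.85 in H100. The controls gave 8.22, 8.28 and 8.56 in N21 and 7.57, 8.23 and 8.63 in N100. All groups overlapped, and H40 was the only hypoxia group whose lowest array exceeded both control medians. By mean the order was H40, H100, H21, H60, N21 and N100, and no neighbours in it differed by more than the SD within groups (0.21). The first record block gave a difference of means of 0.31 (25 hypoxia and 13 normoxia arrays), the second one of 0.11 (5 and 2) and the third one of 0.28 (11 and 4). Refitted on the first block alone the change was 0.30 ± 0.075 and no longer passed. Against N21, which all 4 comparisons share, lung Pfkl was higher by 0.23 ± 0.099 in H21, 0.40 ± 0.099 in H40, 0.11 ± 0.093 in H60 and 0.23 ± 0.095 in H100, and H100 exceeded N100 by 0.35 ± 0.092. None of these 5 passed, where 0.0502% of genes did for H21 (0.0451% higher), 0.00502% for H40, 0 for H60 (695 genes at an unadjusted p under 0.05), 0.0201% for H100 (0.015% higher) and 0.105% for H100 against N100 (0.0853% higher and 0.0201% lower).

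A neutrophil marker was higher in the same lungs. All 5 neutrophil genes had positive differences, and 1 of them, the collagenase gene Mmp8, passed the test (0.91 ± 0.15, adjusted p = 0.00013). Their mean ran from 5.66 to 8.11 in hypoxia lungs and from 5.10 to 6.90 in normoxia lungs. It correlated with Pfkl at r = 0.44 over 60 lungs, and at 0.27 once group and record block were removed, where arrays share their processing. The 3 measured red cell genes also had positive differences, with a median of 0.20 and none past the test. Their mean ran from 8.36 to 9.96 in hypoxia lungs and from 8.18 to 10.7 in normoxia lungs, and it correlated with Pfkl at r = 0.40, and at 0.38 after that removal. The neuron list (0.31 and 0.33) and the lens list (0.34 and 0.27) came next. The part of these cells in the Pfkl change was not tested, and in whole tissue more RNA per cell and more cells of a type cannot be told apart.

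Pfkl in brain had a difference of 0.21 ± 0.085 that did not pass (adjusted p = 1.00, where 0.0853% of genes passed, 0.0803% as higher). The brain arrays ran from 7.96 over 9.09 to 9.50 after hypoxia and from 7.84 over 8.87 to 9.17 in normoxia (lowest over median to highest). Of the hypoxia brains 34 of 40 lay above the normoxia mean and 13 above the highest normoxia brain. The difference was 0.20 in the first record block, 0.18 in the second and 0.38 in the third. The third block held 3 normoxia brains, among them N21 replicate 7 at 7.84, a low-correlation array. Without the 5 low-correlation arrays it was 0.20 ± 0.061 (adjusted p = 0.40).

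Pfkl in eye gave 0.14 ± 0.11 (adjusted p = 1.00). Eye values ran from 8.39 over 9.79 to 10.15 in hypoxia and from 8.52 over 9.56 to 10.12 in normoxia. Only 1 hypoxia eye lay above the highest normoxia eye, while 30 of 38 lay above the normoxia mean. The low end of the hypoxia range came from arrays of low correlation, and without those 5 arrays the difference was 0.18 ± 0.073 (adjusted p = 0.62).

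Pfkp, the platelet-type subunit, was higher after hypoxia in eye. The difference was 0.52 ± 0.072, or 1.44-fold, the 34th largest of 19937 and among the 17 genes (0.0853%, with 0.0652% as higher) that passed. Of the hypoxia eyes 37 of 38 lay above the normoxia mean.

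The lowest, median and highest eye Pfkp values were 9.61, 9.88 and 10.23 in H21 and 9.21, 9.83 and 10.03 in H40. They were 9.62, 9.91 and 10.08 in H60 and 9.44, 9.78 and 10.10 in H100. The controls gave 8.69, 9.24 and 10.22 in N21 and 9.18, 9.35 and 9.53 in N100. The overlap came mostly from a single control, N21 replicate 2 at 10.22: 36 of 38 hypoxia eyes exceeded every other normoxia eye. Without that array the change was 0.58, the highest value seen when any one array was left out. The lowest value, 0.49, came without N21 replicate 7, the lowest normoxia eye at 8.69 and a low-correlation array. Without H40 replicate 2, the lowest hypoxia eye, the change stayed within the range of 0.49 to 0.58. By mean the groups stood in the order H21, H60, H100, H40, N100 and N21. The gap of 0.41 between H40 and N100 was the only one between neighbouring groups, over the 6 measured members and the 3 tissues, to exceed the SD within groups (0.26). That gap divides hypoxia from normoxia, the difference by which the set was chosen, so its rank is a description only.

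Each hypoxia group had a higher Pfkp mean in eye than N21, which all 4 comparisons share, by 0.64 ± 0.12 in H21, 0.47 ± 0.12 in H40, 0.56 ± 0.12 in H60 and 0.54 ± 0.11 in H100. In the H21 comparison Pfkp was the 1 gene of 19937 (0.00502%) that passed, and in the other 3 no gene did by limma (421, 1076 and 1058 genes at an unadjusted p under 0.05). The H21 call was lost under 4 other settings, with values of 0.61 to 0.64. With 100% oxygen in both arms, H100 exceeded N100 by 0.48 ± 0.11. Within the record blocks the difference between hypoxia and normoxia was 0.48, 0.53 and 0.75, with 24, 5 and 9 hypoxia eyes and 13, 2 and 3 normoxia eyes. The 3 normoxia eyes of the third block included N21 replicate 7, a low-correlation array and the lowest normoxia eye. The fit to the first block alone gave 0.47 ± 0.091, which no longer passed. Of the 10 cell type lists, none had a member past the test in eye. Their correlations with Pfkp over 56 eyes lay between -0.26 (skeletal muscle) and 0.30 (astrocyte), and the highest after removal of group and record block was 0.54 (rod photoreceptor). Their part in the Pfkp change was not tested.

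Pfkp in lung was higher by 0.15 ± 0.061 and did not pass (adjusted p = 0.35). Lung values ran from 7.91 over 8.36 to 8.86 after hypoxia and from 7.73 over 8.24 to 8.47 in normoxia, and 9 of 41 hypoxia lungs lay above the highest normoxia lung. With record block as a term the change was 0.16 ± 0.048 and passed (adjusted p = 0.047). In brain Pfkp had a difference near 0 (0.00042 ± 0.079, adjusted p = 1.00, 95% interval -0.16 to 0.16). Brain values ran from 9.59 over 10.23 to 10.74 in hypoxia and from 9.87 over 10.29 to 10.54 in normoxia. The brain difference was -0.12 in the first record block and 0.28 in the third, where only 3 normoxia brains were available.

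**Figure D1:**
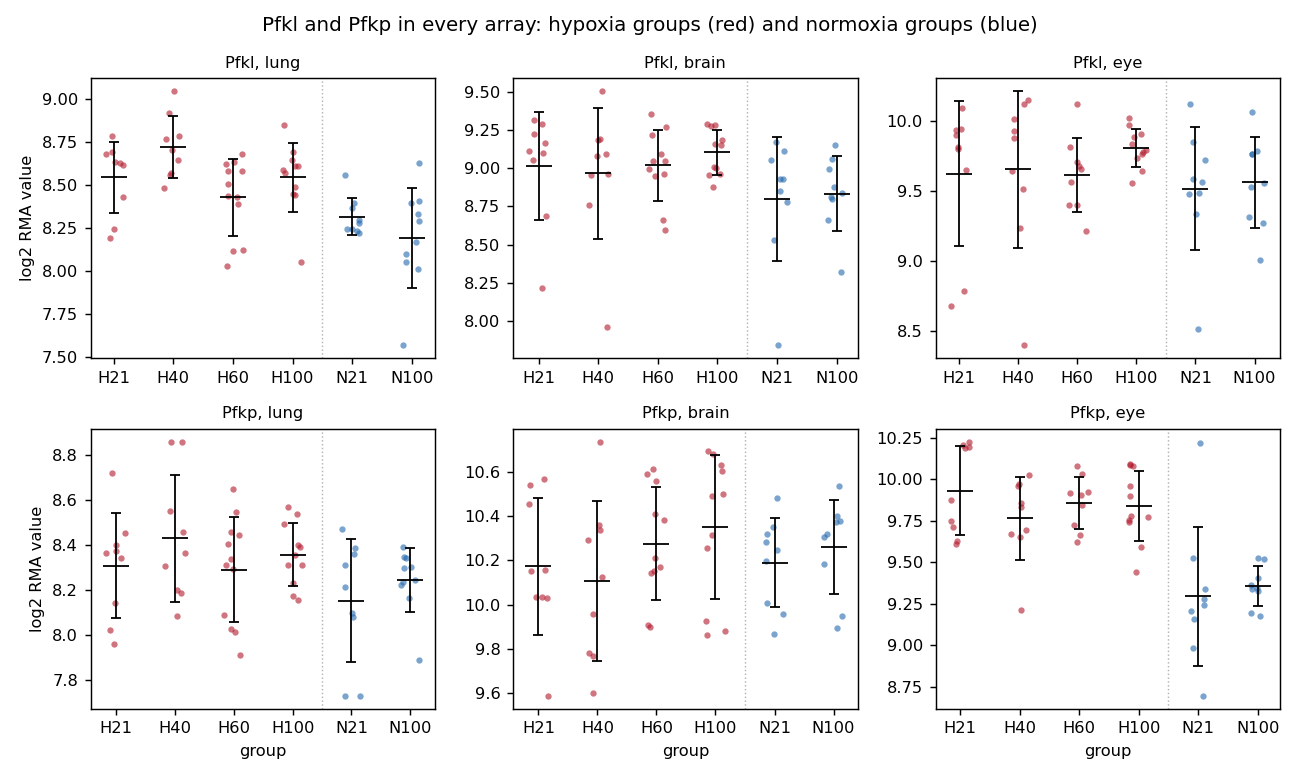
Log2 RMA values of Pfkl (top) and Pfkp (bottom) in every array of lung, brain and eye, by group (x axis; hypoxia groups in red, normoxia groups in blue), with mean ± SD in black. For Pfkp in eye 36 of 38 hypoxia arrays lie above all normoxia arrays but the N21 array at 10.22, while the other panels overlap more.

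The Pfkp change was also set against that of the other tissues in 1 fit of all arrays. Eye exceeded brain by 0.52 ± 0.10, 1 of 2 genes (0.01%) that passed for this difference. With the 3 arrays of another tissue kept it was 0.49 and did not pass, and the value rests on the eye change by which the set was chosen. Eye exceeded lung by 0.37 ± 0.10, which did not pass, where 79 genes did (0.396%). With record block as a term it was 0.37 and passed. Lung exceeded brain by 0.15 ± 0.10 (adjusted p = 1.00, where 0.451% of genes passed). For Pfkl the differences were -0.17 ± 0.12 for eye minus lung, -0.073 ± 0.12 for eye minus brain and 0.095 ± 0.12 for lung minus brain, none past the test (adjusted p = 1.00 each). A Pfkl response particular to lung was thus not shown.

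**Figure D2:**
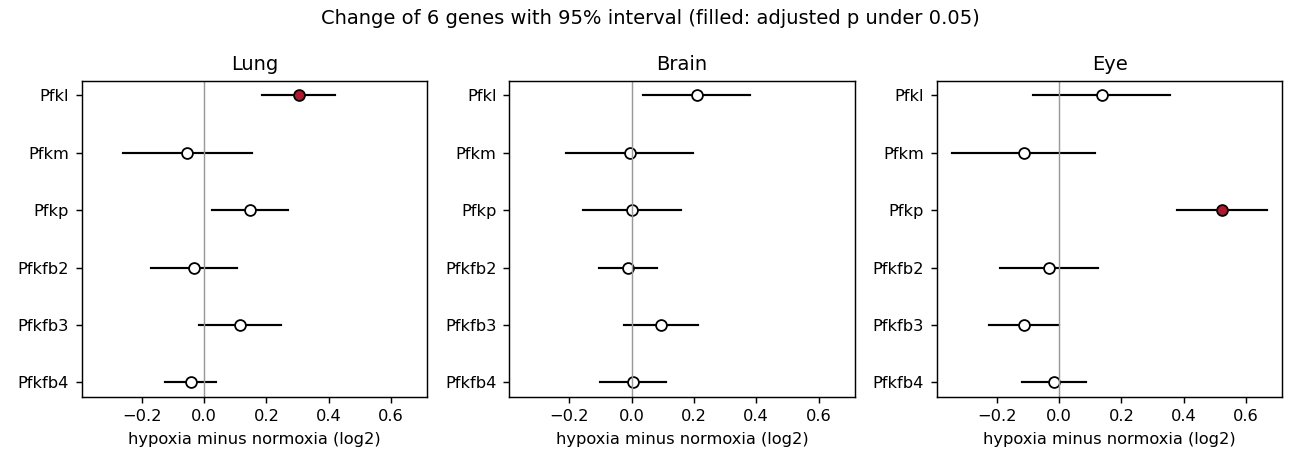
Hypoxia minus normoxia (x axis, log2) with its 95% interval for 6 genes (y axis) in lung, brain and eye; filled points passed at an adjusted p under 0.05. Pfkl in lung (0.30) and Pfkp in eye (0.52), the changes by which the set was chosen, are the filled points.

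Pfkm, the muscle-type subunit, did not pass in any tissue. The difference was -0.054 ± 0.10 in lung, -0.0064 ± 0.10 in brain and -0.11 ± 0.11 in eye (adjusted p = 1.00 in each), and the 95% interval reached from -0.26 to 0.15 in lung, -0.21 to 0.20 in brain and -0.34 to 0.12 in eye. Its spread between arrays was wide. Lung Pfkm ran from 8.33 over 8.92 to 10.31 after hypoxia and from 8.49 over 9.02 to 9.91 in normoxia. Brain Pfkm ran from 9.67 over 11.16 to 11.57 after hypoxia and from 9.57 over 11.22 to 11.43 in normoxia. Eye Pfkm ran from 8.98 over 10.74 to 11.16 after hypoxia and from 9.39 over 10.85 to 11.27 in normoxia. In brain and eye 3 arrays each lay far below the rest, the low-correlation arrays named above, and both exposures held such arrays.

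Skeletal muscle genes varied together with Pfkm in lung and eye, and brown fat genes did so in lung. The mean of 8 contractile and muscle energy genes ran from 5.92 to 9.49 in hypoxia lungs and from 5.90 to 10.2 in normoxia lungs, and from 9.43 to 11.1 in hypoxia eyes and from 10.3 to 11.2 in normoxia eyes. Across arrays it correlated with Pfkm at r = 0.67 in 60 lungs and at 0.60 in 56 eyes, and at 0.65 and 0.59 once group and record block were removed. All 8 muscle genes were lower in hypoxia eyes, with a median difference of -0.27, and none passed. The mean of 4 brown fat genes ran from 4.97 to 9.05 in hypoxia lungs and from 5.31 to 8.25 in normoxia lungs, and it correlated with lung Pfkm at r = 0.68, and at 0.62 after the same removal. All 4 had negative differences in lung, with a median of -0.41 and none past the test. The part of muscle and brown fat in the Pfkm values was not tested. In brain, where muscle genes stayed between 5.60 and 6.06, Pfkm correlated with the mean of 4 astrocyte genes at r = 0.65 over 58 arrays, and it did so in eye at r = 0.59. That was not particular to Pfkm: in brain and eye the astrocyte mean had r = 0.61 and 0.66 with Pfkl and 0.38 and 0.65 with Pfkfb4. With Pfkfb3 it had r = -0.11 and -0.13. The low-correlation arrays of brain and eye enter these values.

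Pfkfb3, the inducible isoform with the highest kinase activity relative to its phosphatase, did not pass in any tissue. In lung it was higher by 0.11 ± 0.066 (adjusted p = 0.69), with values from 7.46 over 8.03 to 8.39 after hypoxia and from 7.31 over 7.85 to 8.29 in normoxia. In brain it was higher by 0.094 ± 0.060 (adjusted p = 1.00), with values from 7.60 over 8.09 to 8.77 after hypoxia and from 7.66 over 8.05 to 8.37 in normoxia. In eye the sign was the other one, -0.11 ± 0.056 (adjusted p = 0.99), with values from 7.22 over 7.76 to 8.19 after hypoxia and from 7.50 over 7.81 to 8.21 in normoxia. The exposures overlapped in each tissue. The difference between the eye and lung changes was -0.23 ± 0.086 and did not pass (adjusted p = 0.45).

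By group the largest Pfkfb3 differences from N21 were 0.22 ± 0.11 in lung H21 (adjusted p = 0.91), 0.22 ± 0.094 in brain H60 (adjusted p = 1.00) and -0.16 ± 0.092 in eye H21 (adjusted p = 1.00). Lung H21 Pfkfb3 ran from 7.46 over 8.12 to 8.39, and from 7.34 over 7.80 to 8.29 in N21. The lung H21 array at 7.46, replicate 1, was a low-correlation array, as was N100 replicate 10, the lowest normoxia lung at 7.31. The 1 brain array at 8.77, H60 replicate 2, was also one of the low-correlation arrays.

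Pfkfb2, the heart isoform, and Pfkfb4, the testis isoform, passed in no tissue. For Pfkfb2 the difference was -0.032 ± 0.069 in lung, -0.010 ± 0.046 in brain and -0.032 ± 0.079 in eye (adjusted p = 1.00 in each). Its values ran from 7.69 over 8.31 to 8.78 in hypoxia lungs and from 7.69 over 8.40 to 8.63 in normoxia lungs. They ran from 8.04 over 8.28 to 8.65 in hypoxia brains and from 7.89 over 8.35 to 8.69 in normoxia brains. They ran from 8.05 over 8.47 to 9.31 in hypoxia eyes and from 8.18 over 8.39 to 9.19 in normoxia eyes. The exposures overlapped in all 3 tissues. For Pfkfb4 the difference was -0.042 ± 0.041 in lung (adjusted p = 0.94), 0.0050 ± 0.053 in brain and -0.017 ± 0.052 in eye (adjusted p = 1.00 in both). The narrowest 95% interval of any member in any tissue was that of Pfkfb4 in lung, which reached from -0.12 to 0.040. Pfkfb4 values ran from 7.12 over 7.57 to 7.78 in hypoxia lungs and from 7.31 over 7.61 to 7.76 in normoxia lungs. They ran from 6.91 over 7.60 to 7.87 in hypoxia brains and from 6.96 over 7.55 to 7.81 in normoxia brains. They ran from 6.55 over 7.11 to 7.37 in hypoxia eyes and from 6.51 over 7.13 to 7.37 in normoxia eyes. The lowest brain and eye values of both exposures were again low-correlation arrays.

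**Figure D3:**
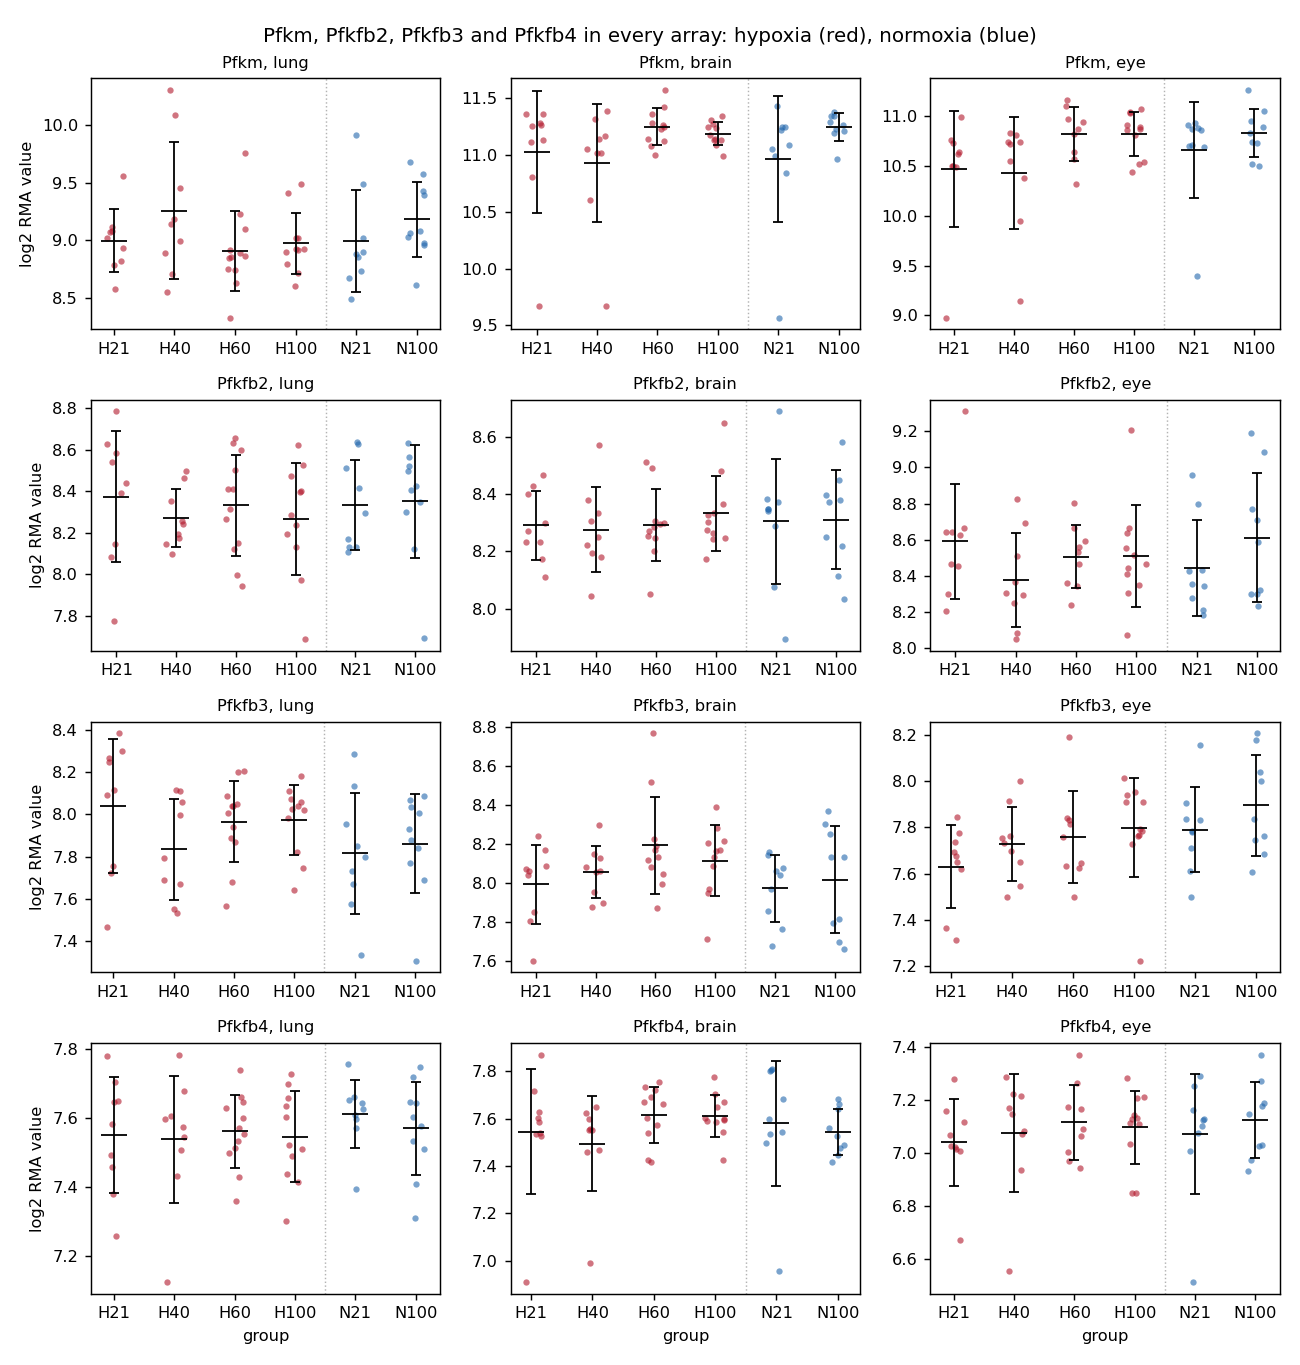
Log2 RMA values of Pfkm, Pfkfb2, Pfkfb3 and Pfkfb4 (rows) in every array of lung, brain and eye (columns) by group, hypoxia groups in red and normoxia groups in blue, with mean ± SD in black. The groups overlap in every panel, and single low arrays of Pfkm and Pfkfb4 stand out in brain and eye.

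The oxygen given after hypoxia moved no member past the test. A line fitted through H21, H40, H60 and H100 gave, over the span of 21 to 100% oxygen, -0.072 ± 0.090 for Pfkl in lung (adjusted p = 1.00), 0.11 ± 0.13 for Pfkl in brain (adjusted p = 0.85) and -0.048 ± 0.11 for Pfkp in eye (adjusted p = 0.96). No gene passed for this slope in any tissue by limma, with 347, 1285 and 1138 at an unadjusted p under 0.05 in lung, brain and eye. The largest slope was that of Pfkm in eye, 0.41 ± 0.17 (adjusted p = 0.83). Eye Pfkm had medians of 10.62 in H21, 10.72 in H40, 10.88 in H60 and 10.87 in H100, and the lowest arrays of H21 and H40 were at 8.98 and 9.15. Without the 5 low-correlation eyes that slope was 0.18 ± 0.10 (adjusted p = 0.79). Oxygen at 100% without hypoxia moved no member past the test either: N100 minus N21 passed for 0 of 19937 genes in any tissue, with 328 genes at an unadjusted p under 0.05 in lung, 806 in brain and 777 in eye. N100 and N21 were spread differently over the record blocks, so oxygen and block are partly mixed here and in the interaction. The interaction of hypoxia with 100% oxygen was 0.12 ± 0.14 for Pfkl in lung and -0.16 ± 0.16 for Pfkp in eye (adjusted p = 1.00 each), and 479, 566 and 788 genes had an unadjusted p under 0.05 in lung, brain and eye, where 0 passed by limma.

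The other steps of glycolysis were read from 16 genes, of which Gpi1, Gapdh and Eno1 had no probe set with 1 gene. In lung 11 of the 13 measured had positive differences and 1 passed, the glucose transporter Slc2a3 (0.24 ± 0.066, adjusted p = 0.044), where 1.05% of all genes passed as higher. The aldolase Aldoa (0.28 ± 0.087, adjusted p = 0.095), the pyruvate kinase Pkm (0.20 ± 0.061, adjusted p = 0.083) and the lactate dehydrogenase Ldha (0.15 ± 0.046, adjusted p = 0.085) did not, and these 3 were named after their values were seen. The median over the 13 was 0.13, against 0.0091 over all genes. Brain had positive differences in 11 of 13 too, and eye in 8 of 13. Over all genes 55.8% were positive in lung, 47.8% in brain and 51.8% in eye. In brain 0 of 13 passed, with a median of 0.068 against -0.0027 over all genes, and the largest change was that of hexokinase Hk2 (0.24 ± 0.072, adjusted p = 0.52), before Ldha (0.14 ± 0.069, adjusted p = 1.00). In eye 0 of 13 passed, with a median of 0.012 against 0.0027 over all genes. The largest eye changes were those of the phosphoglycerate kinase Pgk1 (0.19 ± 0.055, adjusted p = 0.25) and of Pkm (0.16 ± 0.085, adjusted p = 1.00), both under the 0.52 of Pfkp. The set was chosen by that Pfkp change, so its rank beside these genes is a description only.

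**Figure D4:**
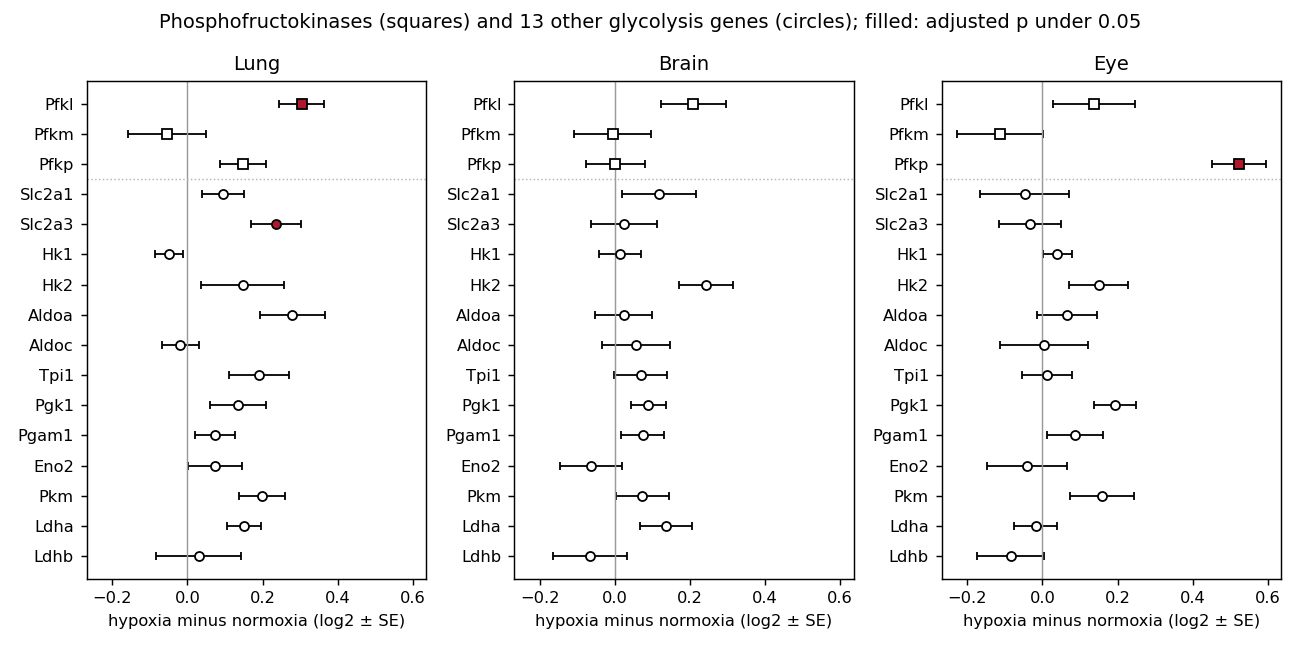
Hypoxia minus normoxia (x axis, log2 ± SE) for Pfkl, Pfkm and Pfkp (squares) and 13 other glycolysis genes (circles) in lung, brain and eye; filled symbols passed at an adjusted p under 0.05. In lung Slc2a3 (0.24) passed beside Pfkl, and in eye Pfkp (0.52) lies to the right of the 13. The set was chosen by these Pfkl and Pfkp changes.

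Enzymes that work against phosphofructokinase, the fructose bisphosphatases Fbp1 and Fbp2 and the phosphatase Tigar, passed in no tissue. The largest differences were 0.036 ± 0.051 for Tigar and 0.015 ± 0.054 for Fbp1 in lung, -0.056 ± 0.066 for Fbp1 and 0.055 ± 0.075 for Fbp2 in brain, and -0.27 ± 0.11 for Fbp2 (adjusted p = 0.82) and -0.073 ± 0.050 for Tigar in eye. Fbp2 is the muscle isoform, and its eye value has the sign of the skeletal muscle genes there. The part of muscle in that value was not tested. Of 8 regulators of the family, 7 were measured, the HIF subunits Hif1a, Epas1 and Arnt, the AMP-activated kinase subunits Prkaa1 and Prkaa2, Prkacb and Akt1, and none passed in any tissue. The 2 largest differences were 0.088 ± 0.080 for Prkaa2 and -0.075 ± 0.068 for Epas1 in lung, -0.063 ± 0.066 for Hif1a and -0.025 ± 0.062 for Prkaa2 in brain, and 0.090 ± 0.061 for Prkacb and 0.072 ± 0.053 for Arnt in eye.

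HIF targets outside glycolysis were counted beside the family. In lung 4 of 12 passed as higher, where 1.05% of all genes did: the vasodilator peptide gene Adm (0.71 ± 0.095, adjusted p = 1.32e-06), the mitophagy receptor Bnip3 (0.36 ± 0.088, adjusted p = 0.013), the prolyl hydroxylase P4ha2 (0.33 ± 0.069, adjusted p = 0.0024) and Ndrg1 (0.20 ± 0.056, adjusted p = 0.040). Positive differences were seen in 9 of the 12 in each tissue. Over all genes they were seen in 55.8% in lung, 47.8% in brain and 51.8% in eye. In lung Bhlhe40 had a negative difference of -0.20 ± 0.072 (adjusted p = 0.19). The list was chosen with earlier results of these data known. In brain 0 of 12 passed, where 0.0803% of all genes passed as higher, with Pdk1 (0.18 ± 0.042, adjusted p = 0.059) and Bnip3 (0.18 ± 0.078, adjusted p = 1.00) the largest. In eye 0 of 12 passed, where 0.0652% of all genes passed as higher, with Vegfa (0.18 ± 0.063, adjusted p = 0.57) and Adm (0.17 ± 0.082, adjusted p = 0.97) the largest, each under the 0.52 of Pfkp in the same eyes, by which the set was chosen. Of the 10 cell type lists, only neuron (Stmn2, 0.30 ± 0.069), astrocyte (Aldh1l1, 0.22 ± 0.049) and neutrophil genes (Mmp8) had 1 member each past the test, all 3 higher and in lung (1.05% of all genes). Skeletal muscle, type 2 alveolar, lens, rod photoreceptor, red cell, brown fat and liver genes had none in any tissue.

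The genes whose values ran most like Pfkl across 60 lungs were Ldha (r = 0.82), the methionyl-tRNA synthetase Mars1 (r = 0.77) and Aldoa (r = 0.75), and after removal of group and record block the values were 0.84, 0.67 and 0.66. For Pfkp across 56 eyes they were the secreted angiopoietin-like gene Angptl7 (r = 0.76), the alpha-arrestin Arrdc3 (r = 0.70) and the phosphatase Inpp5k (r = 0.69), with 0.75, 0.50 and 0.62 after that removal. All pairs share their arrays and their normalization.

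Among themselves the members did not move as a unit. In lung the pairs with the highest correlation were Pfkfb2 with Pfkfb3 (r = 0.66) and Pfkm with Pfkp (r = 0.61), while Pfkl had r = 0.17 with Pfkp (0.30 once group and record block were removed) and r = -0.046 with Pfkfb3 (0.0084 after removal). Between the first and the later records lung Pfkl differed by 0.18 and lung Pfkp by -0.26 (later minus first). In brain the highest was Pfkm with Pfkfb4 (r = 0.73), followed by Pfkl with Pfkfb4 and with Pfkm (r = 0.62 each). In eye it was Pfkl with Pfkfb4 (r = 0.60), and Pfkfb2 and Pfkfb3, which ran together in lung, had r = -0.27. Pfkp in eye had its highest correlation among the members with Pfkl (r = 0.38) and its lowest with Pfkfb3 (r = -0.36). These values are over 60, 58 and 56 arrays, and the low-correlation arrays of all 3 tissues enter them. Those of lung, H21 replicate 1 and N100 replicate 10, held the lowest lung Pfkfb3 of their exposures, 7.46 and 7.31. Their Pfkfb2 values were 7.77 and 7.69.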

How the data were processed

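Total RNA of whole lung, brain and eye was hybridised to Affymetrix arrays. Per the submitters' processing notes the values were made with RMA (version not stated), and the deposited table holds log2 values per probe set, without replicate pooling. The median log2 value over the arrays of a tissue was 6.25 in lung, 6.07 in brain and 6.35 in eye. These medians do not settle whether the tissues were normalized separately, and no level was tested across tissues. The labels' protocol names a blood RNA kit, whereas the design text names tissue in RNAlater.

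Of 34760 probe sets, 21640 had 1 gene symbol in the platform annotation, 1321 several and 11799 none. Symbols were updated through Entrez identifiers (21553 matched), and the probe set with the highest mean was used where a gene had several, which left 19937 genes. Changes were fitted with limma 3.58.1 in R 4.3.3 (lmFit and eBayes, two-sided, all 6 groups of a tissue in 1 fit) and adjusted by Benjamini-Hochberg over all genes, and ± is the standard error unless named SD. Groups came from the sample titles. Arrays were taken as separate animals, since the design text describes randomized mice, and organs of 1 animal could not be tied together. Precision is limited by the number of arrays.

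The members, the lists and the rule for named genes were chosen with earlier results of these data known. The rule names every member, of each list up to 4 genes that passed or otherwise the 2 largest changes, and 3 most alike genes for each member that passed. Promoter windows came from RefSeq (GRCm38.p6), and all 7 members had at least 1. Protein sequences are not analysed here. The fits were tested on simulated data with independent noise for each gene. The simulation held no record blocks and no low-correlation arrays, so it does not cover their effect on the fits. Alternatives were array quality weights, replicate number as a block, record block as a term or the first block alone, dim genes left out, renewed quantile normalization, every probe set, a sex covariate read from the arrays, 2 pooled groups, single-comparison fits, low-correlation arrays (over 3 median absolute deviations below the median) left out, and each array left out in turn.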

Additional observations from a re-analysis of the deposited data

Results flagged for a closer look

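In groups of 4 to 10 arrays the highest or lowest array was set against its nearest neighbour by Dixon's criterion. Of 78 groups, each 1 member in 1 tissue, 20 had an array that stood apart, where chance gives about 1 in 20 groups. In brain, N21 replicate 7 stood low for Pfkl (7.84), Pfkm (9.57) and Pfkfb4 (6.96). Brain H40 replicate 10 did so for the same genes, at 7.96, 9.67 and 6.99. Brain H21 replicate 8 stood low for Pfkm (9.67) and Pfkfb4 (6.91), and N100 replicate 9 for Pfkm (10.96). In eye, N21 replicate 7 stood low for Pfkl (8.52), Pfkm (9.39) and Pfkfb4 (6.51). Eye H21 replicate 9 did so for Pfkm (8.98) and Pfkfb4 (6.67), and H40 replicate 8 for Pfkfb4 (6.55). All of these but brain N100 replicate 9 are low-correlation arrays of the third record block. Single flags fell on Pfkfb2 in eye H21 replicate 2 (9.31, high), Pfkfb3 in eye H60 replicate 5 (8.19, high) and Pfkp in eye H40 replicate 2 (9.21, low). In lung, N100 replicate 10 stood low for Pfkfb3 (7.31) and Pfkp (7.89), and it is a low-correlation array too.

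The change of Pfkp after hypoxia was larger in eye than in brain by 0.52 on the log2 scale in 1 fit of all arrays. The set was chosen by the hypoxia difference that enters this value, so it is a description and no independent finding, and with the arrays of another tissue kept it was 0.49 and no longer passed.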

How the results depend on the processing

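With each array left out in turn, which was run for the difference between hypoxia and normoxia, Pfkl in lung ranged from 0.27 to 0.33 and Pfkp in eye from 0.49 to 0.58. Members that passed stayed at 1 for lung, 0 for brain and 1 for eye. Genes that passed ranged from 262 to 418 in lung, 11 to 32 in brain and 12 to 26 in eye (331, 17 and 17 with all arrays). Single arrays moved the brain count by more than 1.5 times: it was 32 without N21 replicate 2, 28 without H100 replicate 6 or H40 replicate 2, 26 without H60 replicate 1 or H21 replicate 7, and 11 without N100 replicate 3 or N21 replicate 6. The eye count of 26 was without N21 replicate 2, and so was the lung count of 418. Near-zero changes switched sign: Pfkm ranged from -0.086 to 0.0038 in lung and from -0.094 to 0.036 in brain, Pfkp in brain from -0.022 to 0.019, Pfkfb2 from -0.036 to 0.014 in brain and from -0.055 to 0.0047 in eye, and Pfkfb4 in brain from -0.034 to 0.025. On the first record block alone, with fewer arrays, 23 genes passed for lung, 4 for brain and 0 for eye, and 0 members did in lung or eye: Pfkl in lung was 0.30, Pfkp in eye 0.47, Pfkm in lung 0.078, Pfkp in brain -0.11, Pfkfb2 in brain 0.0014 and Pfkfb4 in eye 0.0033. With record block as a term 504 genes passed in lung and 32 in eye, 2 members passed in lung (Pfkp at 0.16), Pfkm in brain was 0.044, Pfkp in brain -0.036, H100 minus H21 of Pfkl in lung -0.021 and N100 minus N21 of Pfkl in brain -0.028. Pfkp eye minus lung then passed (0.37, 1 member), and H21 minus N21 of Pfkp in eye did not (0.61, 0 members). Array quality weights gave 834 genes for lung, 41 for brain and 53 for eye, and H100 minus N100 passed for 1 member in lung (Pfkl, 0.36) and 1 in eye (Pfkp, 0.46). The weights turned the sign of H100 minus H21 of Pfkl in lung (-0.044), Pfkp in brain (-0.067), N100 minus N21 of Pfkl in brain (-0.047) and N100 minus N21 of Pfkp in eye (-0.0076). With the 3 arrays of another tissue kept, 95 genes passed in lung and 8 in eye, 0 members passed for H21 minus N21 in eye (Pfkp 0.64) or for eye minus brain (Pfkp 0.49), and Pfkfb2 and Pfkfb4 in brain were 0.011 and -0.029. Fitted to the compared groups only, H21 minus N21 of Pfkp in eye did not pass (0.64, 0 members), and H100 minus N100 did (0.48, 1 member). Low-correlation arrays left out gave 30 genes in brain and -0.0012 for Pfkp there, which was -0.00028 with a sex covariate, and Pfkm in brain was 0.0055 with arrays in 2 pooled groups. The cause of these shifts was not tested.

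Replicate numbers were not taken to pair the arrays, since not every pair correlated over 0.1: same-numbered arrays had a mean correlation of 0.16 for lung, 0.11 for brain and 0.078 for eye, against -0.014, -0.0072 and -0.0063 for arrays of different numbers. Same-numbered arrays were thus more alike on average, but the correlation was over 0.1 in 77 of 139 pairs for lung, 73 of 134 for brain and 52 of 131 for eye, with the lowest pairs at -0.51, -0.45 and -0.34. Low replicate numbers lie in the first record block and high ones in the later blocks. Group means were removed for these correlations but record block was not, so likeness by number and by block cannot be told apart. The replicate block gave 417 genes past the test for lung, 18 for brain and 19 for eye, with Pfkl in lung at 0.29 and Pfkp in eye at 0.51. H21 minus N21 of Pfkp in eye did not pass with the block (0.64, 0 members), Pfkm in brain was 0.039, Pfkp in brain -0.027 and H100 minus H21 of Pfkl in lung -0.032.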
